A study of Mus musculus with 9 samples.

Results

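Cdkn1a, Ccng1, Btg2, Mdm2, Phlda3, Trp53inp1, Sesn2 and the 3 Gadd45 genes Gadd45a, Gadd45b and Gadd45g were followed in mouse brain after focal ischaemia. They were chosen by name as known targets of the transcription factor p53 and as the Gadd45 family, with earlier results of these data known. Every array probe whose RefSeq accession maps to a gene of this set was taken. That gave 12 probes for 10 genes, out of 55681 probes and 30837 genes tested. Of the genes tested, 17589 had a symbol. The rest are entries that go by their name on the array and are counted as genes here. Each of the 12 probes exceeded background clearly on all 9 arrays, so all 10 genes passed the filter on dim probes in every group.

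Adult male C57BL/6 mice aged 50 to 53 days formed 3 groups of 3, with different animals in each experiment. VEGF mice had the middle cerebral artery occluded for 90 min and, 3 h after reperfusion, were given recombinant human VEGF-A165 (1 µl of a solution of 10 µg/ml) into the right lateral ventricle. MCAO mice had that occlusion and 1 µl of phosphate-buffered saline by that route and at that time. Sham mice had sham surgery, for which the labels state no injection, and all brains were collected 24 h after reperfusion. The labels do not state which part of the brain was used. VEGF-A is a growth factor of blood vessels, and the occlusion is a transient model of stroke. No gene was altered in any group.

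p53 is held low in unstressed cells by the ubiquitin ligase Mdm2, which is itself a p53 target. When DNA is damaged or cells are stressed, p53 is stabilised and turns on genes that stop the cell cycle, restrain growth signals, repair DNA or start apoptosis. The Gadd45 proteins are small, acidic, stress-inducible proteins that bind cell cycle, DNA repair and MAP kinase partners. Gadd45a is a p53 target, Gadd45b is induced through NF-kappaB and by synaptic activity in neurons, and Gadd45g responds to cytokines.

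The promoters of the 2 genes with the clearest response and of the other Gadd45 genes are shown. Of these, the Cdkn1a and Gadd45a windows hold a p53 half-site, and the Gadd45b and Gadd45g windows do not. For Cdkn1a, which has 2 annotated starts, the window of the upstream start is shown. Each window runs from 250 bases before to 50 bases after the annotated start and comes from RefSeq on GRCm38.p6. Capitals mark motifs found by a search of both strands, which were the p53 half-site, the TATA box TATAAA and the CEBP-ATF element TGATGNAA. The Cdkn1a window is chr17:29090729-29091028 on the plus strand, Gadd45a is chr6:67037358-67037657 on the minus strand, Gadd45b is chr10:80929841-80930140 on the plus strand and Gadd45g is chr13:51846425-51846724 on the plus strand.
Cdkn1a: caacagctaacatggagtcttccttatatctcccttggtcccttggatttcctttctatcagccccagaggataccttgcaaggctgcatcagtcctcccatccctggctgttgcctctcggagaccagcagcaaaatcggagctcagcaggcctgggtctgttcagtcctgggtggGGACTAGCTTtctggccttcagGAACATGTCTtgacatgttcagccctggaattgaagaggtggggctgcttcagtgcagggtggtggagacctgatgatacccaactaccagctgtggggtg
Gadd45a: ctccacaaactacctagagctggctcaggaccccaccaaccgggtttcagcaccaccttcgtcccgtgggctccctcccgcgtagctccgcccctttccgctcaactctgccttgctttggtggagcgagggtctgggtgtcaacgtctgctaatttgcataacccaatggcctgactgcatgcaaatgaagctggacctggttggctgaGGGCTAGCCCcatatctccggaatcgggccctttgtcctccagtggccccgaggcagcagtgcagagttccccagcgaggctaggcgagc
Gadd45b: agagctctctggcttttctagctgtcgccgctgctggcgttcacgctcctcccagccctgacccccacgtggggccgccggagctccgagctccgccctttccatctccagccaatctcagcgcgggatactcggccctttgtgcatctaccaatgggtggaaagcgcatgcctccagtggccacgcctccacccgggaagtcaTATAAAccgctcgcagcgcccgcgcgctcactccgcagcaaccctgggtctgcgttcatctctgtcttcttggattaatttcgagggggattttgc
Gadd45g: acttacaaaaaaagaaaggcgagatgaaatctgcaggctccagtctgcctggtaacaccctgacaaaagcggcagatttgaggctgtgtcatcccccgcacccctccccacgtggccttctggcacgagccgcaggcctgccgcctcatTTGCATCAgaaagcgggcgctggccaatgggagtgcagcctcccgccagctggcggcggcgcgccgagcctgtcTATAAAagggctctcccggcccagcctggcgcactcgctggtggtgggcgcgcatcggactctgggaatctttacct

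In the Cdkn1a window a p53 half-site lay at bases -73 to -64 and another at -51 to -42 from the start. Gadd45a held a half-site at -40 to -31, Mdm2 at -186 to -177 and Ccng1 at -185 to -176. Gadd45b had a TATA box at -46 to -41. Gadd45g had a TATA box at -27 to -22 and a CEBP-ATF element at -101 to -94. Windows were matched for 9 of the 10 genes, with 2 starts for Cdkn1a, of which the second held none of the motifs. The 2 Cdkn1a probes map to different RefSeq transcripts, and their starts were not matched to these windows. The half-site was thus in 4 of 10 windows, against 8.36% of 32817 promoters of the same length. The windows of the p53 targets Btg2, Phlda3 and Sesn2 held none, and Trp53inp1 had no window. The TATA box was in 2 of 10 windows, against 13.6% of all promoters, and the CEBP-ATF element in 1, against 3.97%. Btg2 alone held the full cyclic AMP response element TGACGTCA, at -166 to -159, which was in 1.79% of all promoters. Its shorter form TGACG, which overlaps the full element, was in 2 of 10 windows against 20.8% of all. The AP-1 site TGANTCA, the kappaB site and the CArG box were in 0 of 10 windows, against 7.81%, 8.46% and 1.63% of all promoters. These are matches of letters and not measured binding.

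Levels below are log2 processed signal minus the 75th percentile of the array, so that 0 is the signal of a probe at that percentile. They compare 1 gene between arrays and not genes with each other, since each probe has its own brightness. A gene is called where the limma adjusted p, taken over all 30837 genes, is under 0.05. Before scaling, the 75th percentile signal was 723 to 1550 on VEGF arrays, 797 to 1770 on MCAO arrays and 1250 to 1340 on sham arrays, and 73.0% to 81.8% of spots were well above background. Array 1 of the VEGF group and array 1 of the MCAO group stood apart from the other ischaemic arrays. All 8 neuron markers were detected on all 9 arrays, and their median against the sham mean was -2.37 on VEGF array 1 and -2.44 on MCAO array 1. VEGF and MCAO arrays 2 and 3 had neuron medians of -0.82 to -0.32. Endothelial markers, 6 in number, had medians of 2.44 on VEGF array 1 and 1.74 on MCAO array 1, against 0.30 to 0.63 on arrays 2 and 3. Slco1a4, an anion transporter gene of brain endothelium and the only one of the 6 called, went the other way: it fell by 2.23 in VEGF against sham (limma adjusted p = 0.00388) and fell by 1.59 in MCAO against sham (0.0150). MCAO array 1 was also scanned on another day and was processed without spatial detrending. Sham arrays shared a slide that held no ischaemic array, so slide and injection cannot be told apart from ischaemia. Counts are therefore given with and without this pair of arrays.

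Cdkn1a and Gadd45a rose in both ischaemic groups, and no gene of the 10 differed between VEGF and MCAO mice by the test. All 10 genes had a higher mean in VEGF than in sham mice and in MCAO than in sham mice. VEGF against sham gave 2 of 10 called, both higher, where 2.07% of all genes were called higher. MCAO against sham also gave 2 of 10, both higher, where 2.28% of all genes were. The median log2 difference of the 10 genes was 1.21 in VEGF against sham, where all genes had a median of -0.12, and 1.46 in MCAO against sham, where it was -0.04. The VEGF and MCAO comparisons share the sham arrays. Since the 10 genes were chosen with earlier results of these data known, their counts beside those of all genes are descriptions and no independent test.

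**Figure D1:**
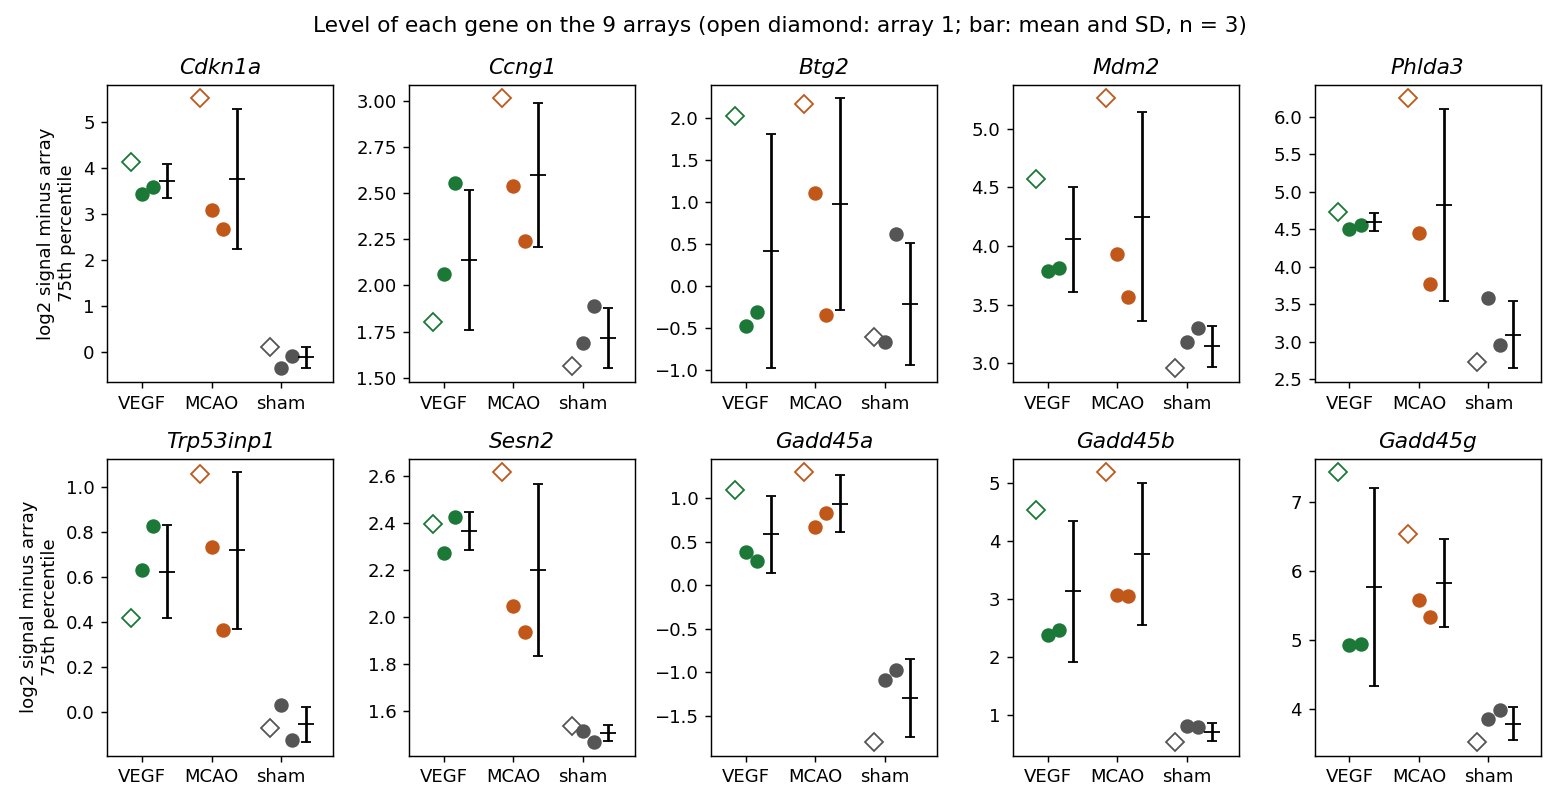
Level of each of the 10 genes on each array, as log2 signal minus the 75th percentile of the array, with VEGF, MCAO and sham from left to right; open diamonds are array 1 of each group, and bars are the mean and SD (n = 3). Cdkn1a and Gadd45a lie above every sham array on all 6 ischaemic arrays, while Btg2 overlaps between groups.

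Among the genes of cell cycle and growth arrest, Cdkn1a encodes p21, which inhibits cyclin-dependent kinases and stops the cell cycle. Its level was 4.14, 3.43 and 3.58 on VEGF arrays 1 to 3, 5.51, 3.10 and 2.68 on MCAO arrays 1 to 3, and 0.11, -0.35 and -0.09 on sham arrays 1 to 3. Every ischaemic array was above every sham array, and MCAO array 1 was the highest. The deposited intensity was averaged over the spots of the probe on the log2 scale. That average was 12735, 16758 and 15781 in VEGF mice, 36323, 15169.5 and 10939.8 in MCAO mice, and 1348, 1052 and 1261 in sham mice. The rise was 14.2-fold in VEGF against sham mice (95% interval 5.09 to 39.6, limma adjusted p = 0.0211). In MCAO against sham mice it was 14.6-fold (5.25 to 40.8, limma adjusted p = 0.0195). Bulk RNA cannot tell a change in the number of cells of a type from a change in RNA per cell.

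The Cdkn1a value comes from a probe printed in 10 spots. Another Cdkn1a probe, printed once and dimmer, stood at a log2 difference of 1.42 ± 0.51 (SE) in VEGF against sham (limma adjusted p = 0.164, over all probes) and 1.61 ± 0.51 in MCAO against sham (limma adjusted p = 0.140). Both probes were higher after ischaemia, with differences of unlike size, and only the brighter was called.

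Ccng1 encodes cyclin G1, a p53 target that brings the phosphatase PP2A to Mdm2. Its level was 1.80, 2.06 and 2.55 on VEGF arrays, 3.01, 2.54 and 2.24 on MCAO arrays, and 1.57, 1.69 and 1.89 on sham arrays. MCAO arrays were all above sham, and VEGF array 1 lay within the sham range. The log2 difference was 0.42 ± 0.27 (SE) in VEGF against sham (limma adjusted p = 0.348) and 0.88 ± 0.27 in MCAO against sham (0.125).

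Btg2 encodes an antiproliferative protein that promotes shortening of mRNA tails. Its level was 2.02, -0.47 and -0.30 on VEGF arrays, 2.16, 1.10 and -0.34 on MCAO arrays, and -0.61, -0.66 and 0.62 on sham arrays. Array 1 was the highest in both ischaemic groups, and the ranges of all 3 groups overlapped. The log2 difference was 0.63 ± 0.81 in VEGF against sham (limma adjusted p = 0.633) and 1.19 ± 0.81 in MCAO against sham (0.410). Without VEGF array 1 the first of these became -0.17.

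The genes of p53 feedback and apoptosis were Mdm2, Phlda3 and Trp53inp1, and 0 of 3 were called by limma in either comparison with sham. An unadjusted limma p under 0.05 was found for 2 of them in VEGF against sham and 3 in MCAO against sham. Of all genes, 23.5% and 21.4% reached it in these comparisons. Mdm2, the ligase that marks p53 for degradation, had levels of 4.57, 3.79 and 3.81 in VEGF mice, 5.26, 3.93 and 3.56 in MCAO mice, and 2.96, 3.19 and 3.30 in sham mice. No ischaemic array lay within the sham range. Its log2 difference was 0.91 ± 0.43 in VEGF against sham (limma adjusted p = 0.237) and 1.10 ± 0.43 in MCAO against sham (0.195).

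Phlda3 encodes a small pleckstrin homology protein that competes with the kinase Akt for membrane lipids and so restrains it. Its level was 4.73, 4.50 and 4.56 in VEGF mice, 6.24, 4.45 and 3.76 in MCAO mice, and 2.72, 3.59 and 2.96 in sham mice. The VEGF arrays lay within a narrow range, with an SD of 0.12, while the MCAO arrays had an SD of 1.28, with array 1 far above the others. Relative to sham the log2 difference was 1.51 ± 0.56 in VEGF mice (limma adjusted p = 0.169) and 1.73 ± 0.56 in MCAO mice (0.139).

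Trp53inp1 encodes a nuclear stress protein that promotes p53 phosphorylation and takes part in autophagy. Its level was 0.42, 0.63 and 0.83 in VEGF mice, 1.06, 0.73 and 0.36 in MCAO mice, and -0.07, 0.03 and -0.12 in sham mice. The groups did not overlap with sham. The log2 difference was 0.68 ± 0.22 in VEGF against sham (limma adjusted p = 0.137) and 0.77 ± 0.22 in MCAO against sham (0.108). A dimmer probe of this gene gave 0.28 ± 0.21 and 0.36 ± 0.21 in the same comparisons.

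Sesn2, which encodes a sestrin that senses leucine and restrains mTORC1, varied little between arrays in the VEGF and sham groups, with SDs of 0.08 and 0.04. Its level was 2.39, 2.27 and 2.42 in VEGF mice, 2.61, 2.04 and 1.93 in MCAO mice, and 1.53, 1.51 and 1.47 in sham mice. All ischaemic arrays were above all sham arrays. Its log2 difference was 0.86 ± 0.21 in VEGF against sham (limma adjusted p = 0.0793) and 0.69 ± 0.21 in MCAO against sham (0.124).

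Of the Gadd45 genes, Gadd45a, whose protein takes part in the G2/M checkpoint and DNA repair, was called in both comparisons. Its level was 1.09, 0.38 and 0.28 on VEGF arrays, 1.30, 0.67 and 0.83 on MCAO arrays, and -1.80, -1.09 and -0.98 on sham arrays. The lowest ischaemic array was above the highest sham array by more than the range within any group. Gadd45a rose 3.66-fold in VEGF against sham mice (95% interval 2.21 to 6.06, limma adjusted p = 0.0214). In MCAO against sham mice it rose 4.67-fold (2.82 to 7.73, limma adjusted p = 0.0107).

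Gadd45b, which is known for activity-dependent DNA demethylation in neurons, had the larger differences but wider spread. Its level was 4.54, 2.38 and 2.47 on VEGF arrays, 5.19, 3.06 and 3.05 on MCAO arrays, and 0.53, 0.80 and 0.79 on sham arrays. As deposited intensity this was 16800, 8050 and 7290 in VEGF mice, 29000, 14800 and 14200 in MCAO mice, and 1800, 2330 and 2310 in sham mice. Array 1 was above the mean of the other arrays of its group by 2.12 in VEGF and 2.13 in MCAO mice, and all ischaemic arrays were above all sham arrays. The difference was 5.37-fold in VEGF against sham (95% interval 1.76 to 16.4, limma adjusted p = 0.112) and 8.36-fold in MCAO against sham (2.74 to 25.6, limma adjusted p = 0.0618), so neither passed.

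Gadd45g, a cytokine-responsive member that activates MAP kinase signalling, showed array 1 above the others of its group as well. Its level was 7.43, 4.93 and 4.94 in VEGF mice, 6.54, 5.58 and 5.34 in MCAO mice, and 3.52, 3.86 and 3.98 in sham mice. VEGF array 1 was 2.50 above the mean of the other VEGF arrays, and no ischaemic array fell within the sham range. The log2 difference was 1.98 ± 0.65 in VEGF against sham (limma adjusted p = 0.137) and 2.04 ± 0.65 in MCAO against sham (0.134).

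VEGF and sham arrays did not overlap for 8 of 10 genes, where 18.2% of all genes were higher without overlap. MCAO and sham arrays did not overlap for 9 of 10, against 19.6% of all genes higher without overlap. Btg2 overlapped in both comparisons and Ccng1 in VEGF against sham. Unadjusted limma p under 0.05 was reached by 7 of 10 genes in VEGF against sham, against 23.5% of all genes, and by 9 of 10 in MCAO against sham, against 21.4%. Most of these genes thus separated the groups without passing the adjustment over all genes.

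**Figure D2:**
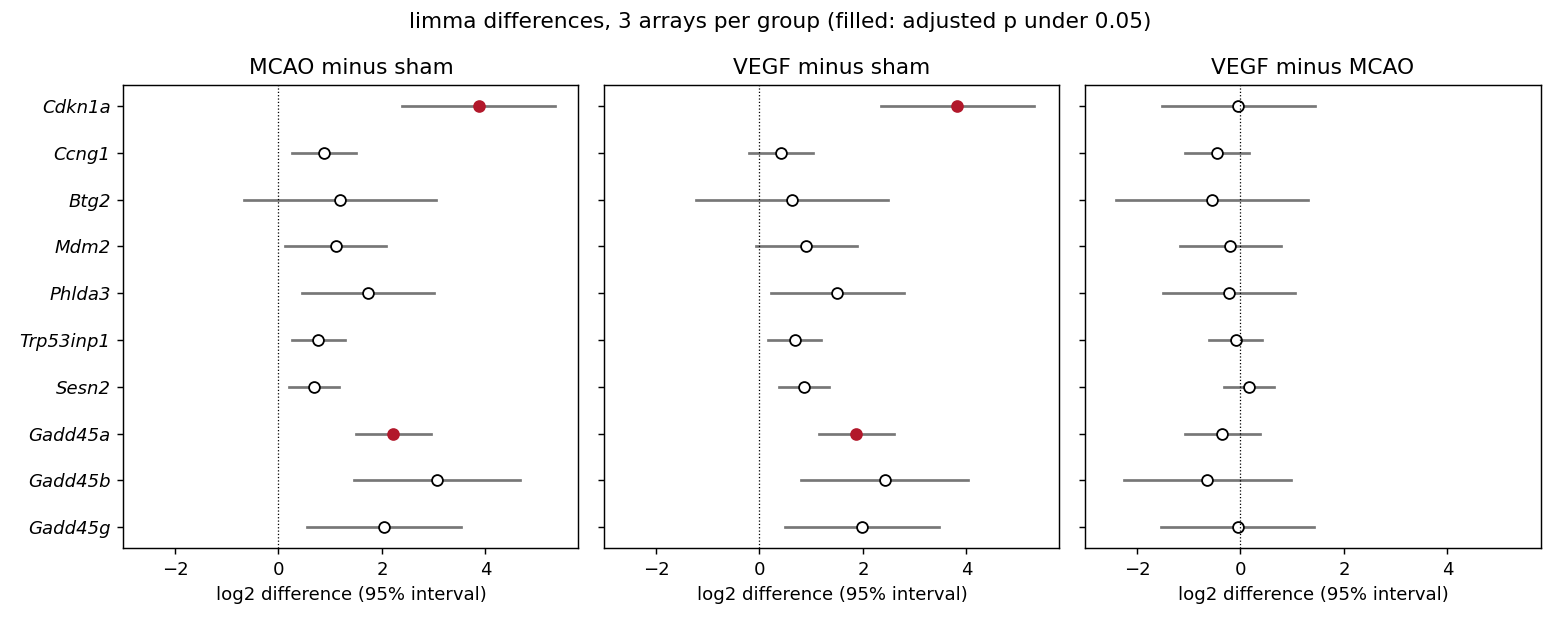
Log2 difference of each gene in MCAO minus sham, VEGF minus sham and VEGF minus MCAO, with 95% intervals from limma (3 arrays per group); filled points have an adjusted p under 0.05. Cdkn1a and Gadd45a are filled in both comparisons with sham, and every interval for VEGF minus MCAO includes 0.

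Whether VEGF altered these responses was asked by comparing VEGF with MCAO mice, which share the occlusion, the injection and the slide. limma called 0 of 10 genes (0 at unadjusted p under 0.05), and 2 of all genes, or 0.00649%. The log2 differences ran from -0.64 for Gadd45b (95% interval -2.25 to 0.97) to 0.17 for Sesn2 (-0.32 to 0.65), and 9 of 10 were below 0. For Cdkn1a the difference was -0.04, with an interval of -1.52 to 1.44, or 0.348-fold to 2.70-fold. Gadd45a stood at -0.35 (-1.08 to 0.38) and Ccng1 at -0.46 (-1.08 to 0.16). Trp53inp1 stood at -0.09 (-0.60 to 0.41), and Btg2, with the widest interval of the 10, at -0.56 (-2.41 to 1.30). Between same-numbered arrays, Gadd45b differed by -0.65, -0.69 and -0.59 and Gadd45a by -0.21, -0.28 and -0.56, while the other 8 genes had differences of both signs. That pairing comes from the data and not from the labels. How many of all genes kept the same sign in every pair was not counted, so these signs show no effect of VEGF. With the array number as a block, the interval was -1.91 to 0.63 for Gadd45b and -1.18 to 0.48 for Gadd45a, and limma called 0 of 10. The number of genes above their all-gene median changed with array 1, being 1 of 10 with all arrays, 5 without both array 1s, 8 without MCAO array 1 and 2 without VEGF array 1. Those settings gave medians of -0.21, -0.02, 0.19 and -0.37 for the 10 genes, and limma called 0 in each.

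Array 1 was the highest VEGF array for 7 of 10 genes and the lowest for 2, Ccng1 and Trp53inp1. Among MCAO arrays it was the highest for 10 of 10, and among sham arrays the highest for 2 and the lowest for 6. These ranks are of scaled levels. The 75th percentile signal was lowest on array 1 in the VEGF group (723) and the MCAO group (797). Before scaling, VEGF array 1 was the highest only for Btg2, Gadd45b and Gadd45g, and was the lowest for the other genes. MCAO array 1 was then the highest only for Cdkn1a, Mdm2, Phlda3 and Gadd45b, and the lowest for Ccng1, Trp53inp1, Sesn2 and Gadd45a. The median of the 3 Gadd45 genes against the sham mean was 3.65 on VEGF array 1, against 1.67 and 1.57 on VEGF arrays 2 and 3. On MCAO arrays it was 2.76 on array 1, against 1.96 and 2.12 on arrays 2 and 3. Oligodendrocyte markers differed between these arrays, with medians of -0.17 on VEGF array 1 and 1.77 on MCAO array 1, and all 6 were lower in VEGF than in MCAO mice (median -0.62, 0 called by limma and not tested as a group). Red blood cell markers, 3 of 4 measured, had medians of 1.66 and 1.44 on VEGF and MCAO array 1, against 0.62 to 0.97 on arrays 2 and 3.

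Of 5 measured neutrophil markers, S100a8, S100a9 and Cxcr2 rose and Mpo and Csf3r were not called. S100a9 stood above the sham mean by 7.10, 4.49 and 6.28 on VEGF arrays 1 to 3 and by 7.33, 4.32 and 6.46 on MCAO arrays 1 to 3. Cxcr2, undetected in sham mice, passed the filter on dim probes only through the ischaemic groups. It was at least 19.4-fold higher in VEGF and at least 21.2-fold higher in MCAO mice. Its limma calls used the undetected sham values, so they do not test those bounds. Mpo stood at 0.38 in VEGF and -0.19 in MCAO against sham, and Csf3r at -0.17 and 0.19. Microglia and macrophage markers went both ways, so that their median was 0.95 on VEGF array 1, 0.15 on MCAO array 1 and -0.08 to 0.05 on arrays 2 and 3. P2ry12 of this list fell by 2.31 in VEGF against sham (limma adjusted p = 0.00122) and it decreased by 2.67 in MCAO against sham (0.000610), while Aif1 stood at 1.34 and 1.05 without passing. Of 6 astrocyte markers, Gfap alone was called, at 2.06 ± 0.40 in VEGF against sham (limma adjusted p = 0.0366). In MCAO against sham Gfap stood at 1.84 ± 0.40 (limma adjusted p = 0.0508). The astrocyte list went both ways, with medians of 0.07 in VEGF and -0.18 in MCAO against sham. Every measured marker other than Cxcr2 was well above background on all 9 arrays, and the markers' part in the 10 genes was not tested.

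**Figure D3:**
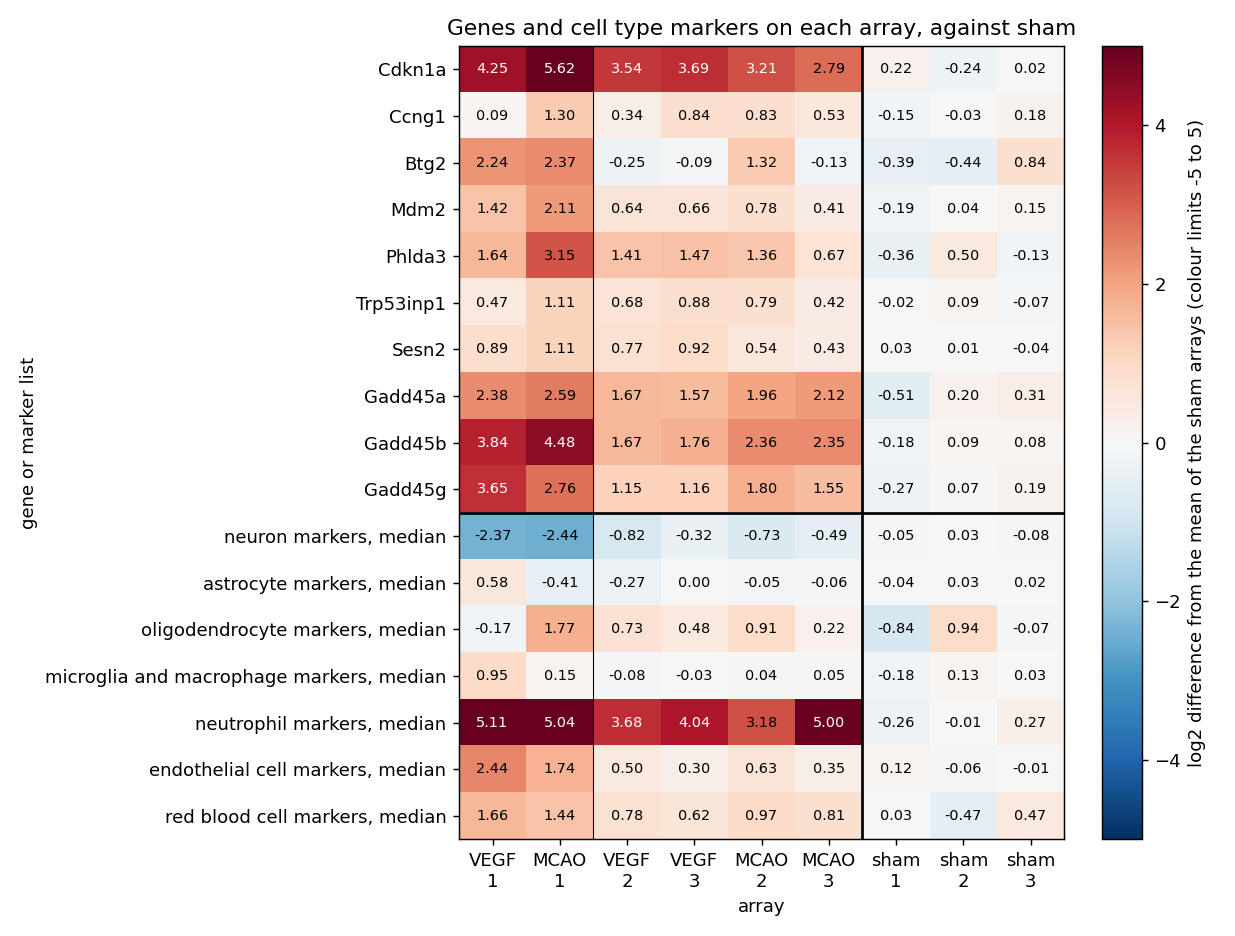
Log2 difference of each array from the mean of the sham arrays for the 10 genes (upper rows) and for the median of each cell type marker list (lower rows); array 1 of the VEGF and MCAO groups is on the left and sham on the right, and colour stops at -5 and 5. Marker values not well above background were raised to the lowest signal that was. Cdkn1a and the Gadd45 genes are high on all 6 ischaemic arrays, and the arrays on the left have the lowest neuron markers, at -2.37 and -2.44.

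Without VEGF array 1 and MCAO array 1, 8 of 10 genes were called in VEGF against sham, against 8.76% of all genes called higher. Those were Cdkn1a (log2 difference 3.62), Mdm2 (0.65), Phlda3 (1.44), Trp53inp1 (0.78), Sesn2 (0.84), Gadd45a (1.62), Gadd45b (1.72) and Gadd45g (1.15). For MCAO against sham 7 of 10 were called, against 9.79% of all genes. These were Cdkn1a (3.00), Mdm2 (0.60), Trp53inp1 (0.60), Sesn2 (0.49), Gadd45a (2.04), Gadd45b (2.36) and Gadd45g (1.68). Without the pair the median difference of the 10 genes was 1.00 in VEGF and 0.85 in MCAO against sham, smaller than with all arrays. The comparison of VEGF with MCAO still had 0 of 10 called. Leaving out this pair was chosen after seeing the data, and it leaves only arrays 2 and 3 in each ischaemic group. Over all genes, calls in either direction went from 748 to 6175 in VEGF against sham and from 868 to 7028 in MCAO against sham.

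The calls of Cdkn1a and Gadd45a changed when single arrays were left out. In VEGF against sham, 0 of 10 were called when any 1 sham array was left out, and Gadd45a alone when VEGF array 1 or VEGF array 3 was left out, while without MCAO array 1 there were 5. For MCAO against sham, 0 were called without sham array 1, Gadd45a alone without sham array 2 or 3, and 4 without VEGF array 1. The share of all genes called higher moved as well. In VEGF against sham it was 0.473% to 0.619% without a sham array and 5.3% without MCAO array 1. Without VEGF array 1 or 3 it was 1.58% or 1.88%. In MCAO against sham it was 0.568%, 0.762% and 0.726% without sham arrays 1 to 3, and 6.07% without VEGF array 1. Over the 22 other settings tried, Cdkn1a ranged from 2.62 to 3.97 in VEGF against sham, with the limma adjusted p up to 0.0990, and from 2.74 to 4.41 in MCAO against sham (up to 0.0947). Gadd45a ranged from 1.53 to 2.03 in VEGF against sham (limma adjusted p up to 0.0986) and from 1.81 to 2.38 in MCAO against sham (up to 0.0569).

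**Figure D4:**
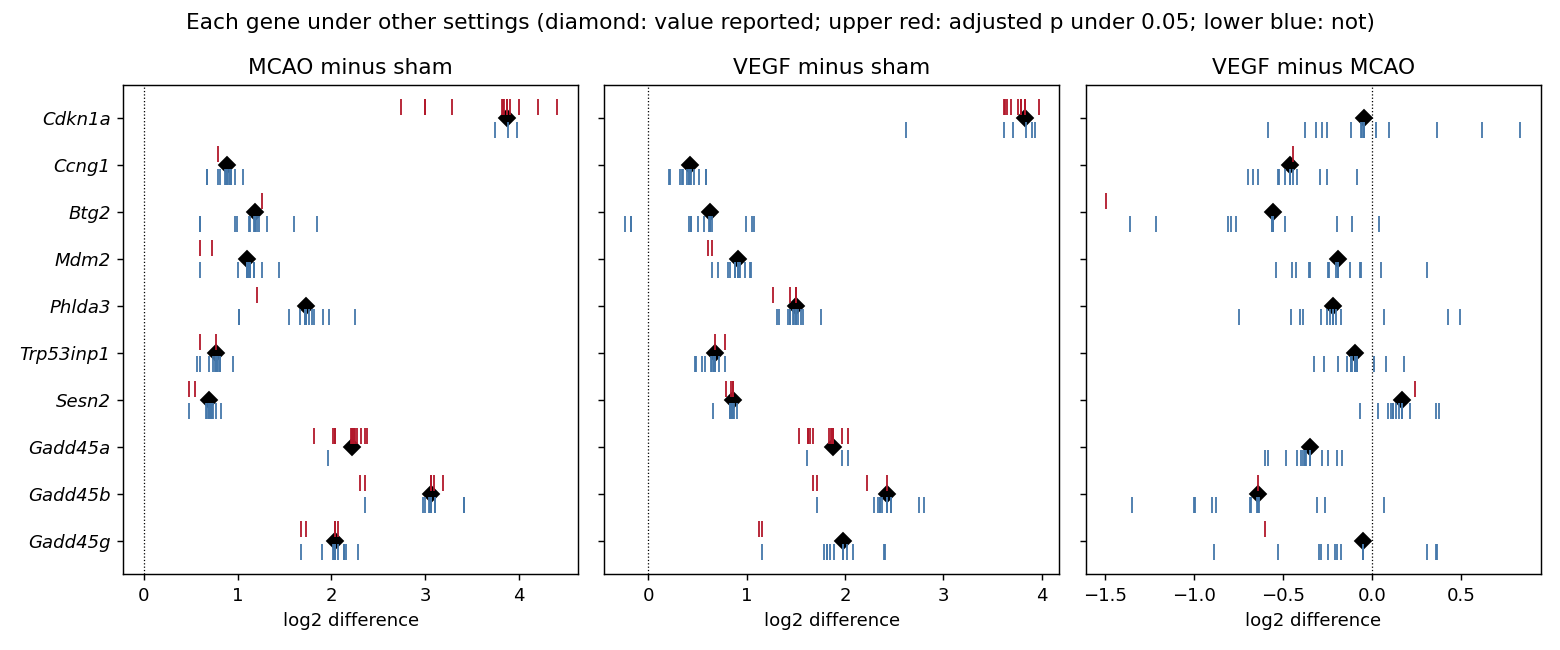
Log2 difference of each gene under the reported setting (diamond) and the 22 others (ticks, raised and red where the adjusted p was under 0.05, lowered and blue where not), for MCAO minus sham, VEGF minus sham and VEGF minus MCAO. In MCAO minus sham every tick of every gene is above 0, and Gadd45a is called in 21 of 22 settings.

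The other genes of these pathways were taken from lists of known members. Of all genes, 2.07% were called higher in VEGF against sham and 2.28% in MCAO against sham. In lists this short, 0 called is near that share, and the lists were not tested as sets. Of 12 genes of p53 and its regulators, limma called 0 in either comparison with sham, with medians of 0.07 in VEGF and 0.05 in MCAO against sham. They went both ways, from -0.86 to 1.09 in VEGF against sham, with 7 of 12 above 0, and from -1.06 to 1.41 in MCAO against sham, with 6 of 12 above 0. Trp53, which encodes p53, stood at 0.98 ± 0.30 in VEGF against sham (limma adjusted p = 0.120) and 0.88 ± 0.30 in MCAO against sham (0.150). Mdm4, an inhibitor of p53 that pairs with Mdm2, stood at 0.07 ± 0.20 (limma adjusted p = 0.844) and 0.61 ± 0.20 (0.148).

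Among 11 measured p53 targets of apoptosis, 2 were called higher in both comparisons, and 8 of 11 were above 0 in each. Pmaip1, which encodes the BH3-only protein Noxa, had levels of -0.39, -0.47 and 0.46 in VEGF mice, 0.21, -0.49 and -0.31 in MCAO mice, and -4.04, -3.08 and -3.15 in sham mice. Its log2 difference was 3.29 ± 0.36 in VEGF against sham (limma adjusted p = 0.00360) and 3.23 ± 0.36 in MCAO against sham (0.00365). The death receptor gene Fas was higher by 2.65 ± 0.34 (limma adjusted p = 0.00794) and 2.54 ± 0.34 (0.00868). The other 9 did not pass, and the list's median was 0.39 in VEGF and 1.03 in MCAO against sham.

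Of 14 further p53 targets of cell cycle, repair and metabolism, 2 were called higher in both comparisons and the list's median was -0.11 in each. Gtse1, a microtubule-associated protein of G2 that restrains p53, was higher by 3.03 ± 0.42 in VEGF against sham (limma adjusted p = 0.0103) and 2.56 ± 0.42 in MCAO against sham (0.0177). Ckap2, a spindle protein, was higher by 1.49 ± 0.20 (limma adjusted p = 0.00866) and 1.44 ± 0.20 (0.00868). The 12 others, which include DNA repair genes such as Xpc and Ddb2, did not pass.

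The 11 binding partners and downstream kinases of Gadd45 proteins had 0 members called by limma in either comparison and medians of -0.09 in VEGF and -0.12 in MCAO against sham. Also 0 of 10 measured relatives of the 10 genes were called, among them Cdkn1b, Ccng2, Btg1 and Sesn3, with medians of 0.42 and 0.39. Of 7 measured G1 cyclins and kinases, Cdk6, a kinase of the G1 phase, was called. No sham array had Cdk6 well above background, so it passed the filter on dim probes only through the ischaemic groups. It was at least 6.02-fold higher in VEGF and at least 4.77-fold higher in MCAO mice. The limma calls (adjusted p = 0.0320 and 0.0411) used the undetected sham values, so they do not test those bounds.

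The integrated stress response shares targets with p53 and induces Sesn2, and 3 of its 8 genes were called higher in each comparison. In VEGF against sham 8 of 8 were above 0, and in MCAO against sham 7 of 8. Atf3, a stress-induced transcription factor, was higher by 6.22 ± 0.73 in VEGF against sham (limma adjusted p = 0.0050) and 6.98 ± 0.73 in MCAO against sham (0.00261). Chac1, which degrades glutathione, was higher by 1.05 ± 0.21 (limma adjusted p = 0.0437) and 1.10 ± 0.21 (0.0331). The stress gene Nupr1 was called in VEGF against sham, at 1.79 ± 0.33 (limma adjusted p = 0.0309), with 1.48 ± 0.33 in MCAO against sham (0.0565). Trib3, a pseudokinase, was called in MCAO against sham, at 4.33 ± 0.87 (limma adjusted p = 0.0387), with 3.62 ± 0.87 in VEGF against sham (0.0748). Neither gene differed between VEGF and MCAO by limma (adjusted p = 1.00 for both).

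NF-kappaB, which induces Gadd45b, has feedback genes of which 2 of 6 were called higher in both comparisons. Nfkb2, which encodes a subunit of the factor, was higher by 2.96 ± 0.49 in VEGF against sham (limma adjusted p = 0.0200) and 2.86 ± 0.49 in MCAO against sham (0.0207). Nfkbie, which encodes an inhibitor of it, was higher by 1.83 ± 0.31 (limma adjusted p = 0.0208) and 1.55 ± 0.31 (0.0373). All 6 genes were above 0 in both comparisons, with medians of 1.82 and 1.63. In VEGF against MCAO, limma called 0 genes in each of these lists.

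**Figure D5:**
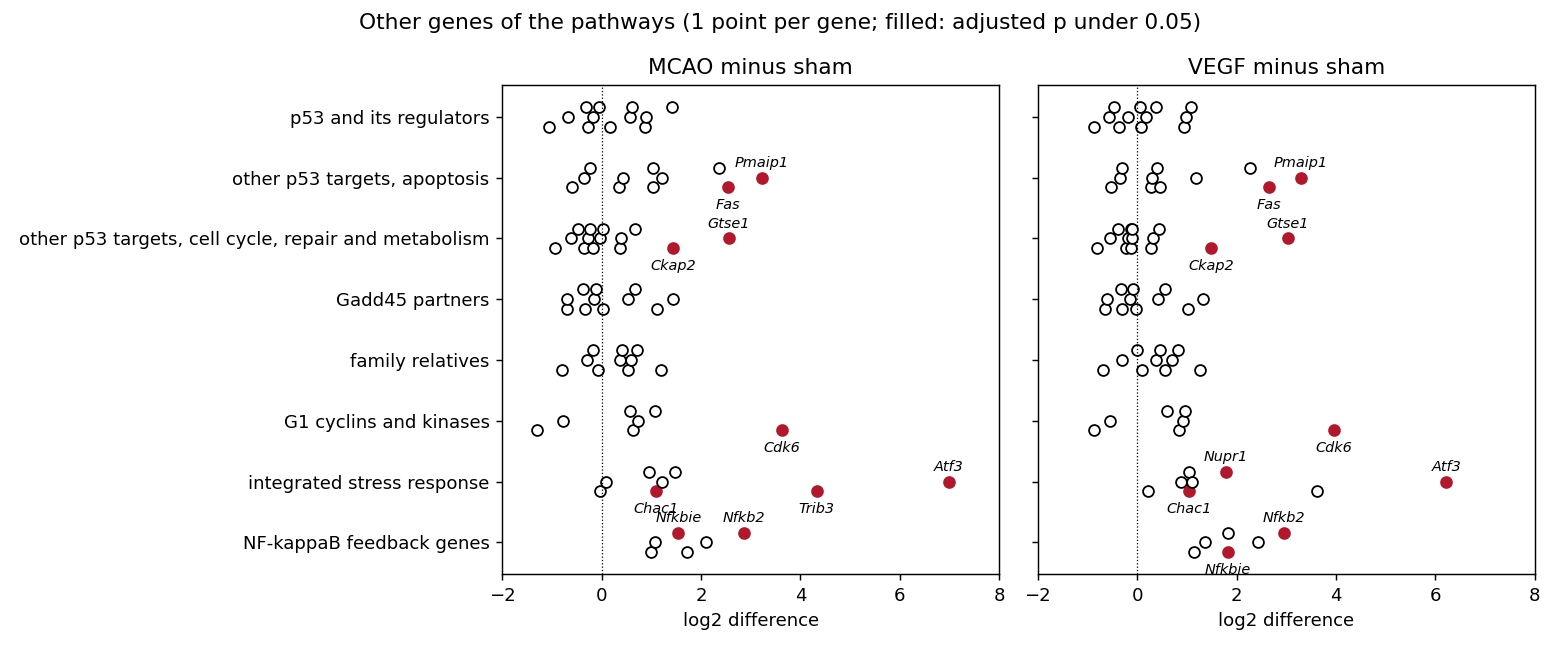
Log2 difference of every measured gene of 8 pathway lists that are not among the 10 genes, in MCAO minus sham and VEGF minus sham; filled and named points have an adjusted p under 0.05. The genes of p53 and its regulators lie on both sides of 0 with none filled, and Cdk6 is drawn at its fitted value although it was not well above background in sham mice.

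The genes whose levels followed those of Cdkn1a most closely over the 9 arrays were Slc39a1, Mthfd2, Tinf2, Rhoj and Ada, with Pearson's r of 0.987 to 0.992. Slc39a1 encodes a zinc transporter, Mthfd2 a mitochondrial folate enzyme, Tinf2 a telomere protein and Ada adenosine deaminase. For Gadd45b they were Lactb2, Rnf125, Bcl2l11, 1110038B12Rik and Nt5dc1, with r of 0.994 to 0.998. Bcl2l11 encodes the BH3-only protein Bim. These are descriptions over arrays that fall into sham and ischaemic groups and share the scaling, so they carry no test.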

How the data were processed

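Brain RNA of 9 mice (3 VEGF, 3 MCAO, 3 sham) was hybridised to 1-colour Agilent arrays with 200 ng of Cy3-labelled RNA each, per the labels. The authors deposited scanner files with processed intensity per spot. The scanner software, Agilent Feature Extraction 10.7.1.1 per the submitters' processing notes, took off the background and removed a spatial trend, whose factor is deposited as a ratio per spot; MCAO array 1 was processed without that step, per the file headers. A deposited table of log2 values, whose normalization is not given in the sources used here, served as an alternative.

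From the intensities, log2 signal was averaged over spots and scaled by subtracting the 75th percentile of the 55681 non-control probes on the array; probes were kept if some group had them well above background on all its arrays (43921 kept), and the brightest probe was taken per gene (30837 genes, 17589 with a symbol; probes were named through RefSeq accessions). limma 3.58.1 in R 4.3.3 fitted all 9 arrays at once without covariates, two-sided, with Benjamini-Hochberg adjustment at 0.05; the fit was checked on simulated data. The number of arrays limits the precision. A gene that no sham array had well above background is given as at least N-fold, against the lowest signal well above background or its own, whichever was higher, leaving out probes whose deposited signal differed from the recomputed one.

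The 10 genes and the lists were chosen with earlier results of these data known. Named were the 10 genes, Trp53 and Mdm4, list genes called in any comparison, and the 5 genes most correlated with Cdkn1a and with Gadd45b; Xpc, Ddb2, Cdkn1b, Ccng2, Btg1 and Sesn3 illustrate lists. Same-numbered VEGF and MCAO arrays deviated together (r = 0.587, 0.224 and 0.558), sham arrays did not with MCAO (0.027, -0.107 and 0.151) or VEGF (-0.032, 0.135 and 0.112), so the number was taken to pair VEGF with MCAO only. That pairing comes from the data and does not set arrays 2 and 3 apart: MCAO array 2 correlated at 0.392 with VEGF array 3, and MCAO array 3 at 0.234 with VEGF array 2, while array 1 of either group correlated negatively with arrays 2 and 3 of the other (-0.268 to -0.563). Another 19 settings were tried, and 3 more chosen after seeing the data: without array 1 of VEGF and MCAO, recomputed signals, and no scaling.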

Additional observations from a re-analysis of the deposited data

How the results depend on the processing

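Among the 10 genes no called value changed sign under any of the 22 alternatives, and differences from sham were above 0 in 217 of 220 values for VEGF and 220 of 220 for MCAO; the 3 exceptions were Btg2. In VEGF against sham the number called, 2 of 10, became 1 with the mean of the probes (Gadd45a), 4 with only these groups in the fit, 8 with array weights, 8 without array 1 of VEGF and MCAO and 3 without scaling, and 0 to 5 with 1 array left out. In MCAO against sham, 2 became 4 with only these groups, 10 with array weights, 7 without the pair and 4 without scaling, and 0 to 4 with 1 array left out. In VEGF against MCAO, 0 became 5 with array weights. The weights did not converge and gave MCAO array 2 a weight of 57.6, so those counts are of little use. The replicate block gave 2, 3 and 0 members in VEGF against sham, MCAO against sham and VEGF against MCAO, with 946, 1229 and 2 genes called in all; same-numbered arrays are not paired with sham. Calls over all genes ranged from 156 to 13189 in VEGF against sham (748 reported), from 190 to 18457 in MCAO against sham (868) and from 0 to 8391 in VEGF against MCAO (2). Without scaling, the median of all genes moved to -0.32 in VEGF against sham and -0.26 in VEGF against MCAO, Sesn2 stood at -0.07 in VEGF against MCAO, and 96.9% of calls in MCAO against sham were higher, against 81.0%. Apart from settings that use fewer arrays, the cause was not tested.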
